A study of Mus musculus with 2 samples.

Results

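Axon guidance ligands and receptors were followed in 2 microarray profiles of the cerebellar granule cell layer of the mouse. The genes were taken by name, as every gene with a single platform symbol beginning with the semaphorin, plexin, ephrin, Eph receptor, netrin, slit, Robo or Unc5 stem, together with Nrp1, Nrp2 and Dcc. This gave 71 genes with 156 probe sets, out of 18194 named genes and 45101 probe sets. Among the 71, 3 were matched by name and are no guidance ligands or receptors. Plxna4os1 is an antisense RNA of the plexin gene Plxna4, and Unc50 encodes a membrane protein unrelated to the Unc5 receptors. Unc5cl is an Unc5c-like death domain gene. The other 68 are 20 semaphorins, 8 ephrins, 7 netrins and slits, 11 plexins and neuropilins, 13 Eph receptors and 9 receptors of the Dcc, Unc5 and Robo families.

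Both samples came from the cerebellum of intact male C57BL/6J mice aged 8 weeks, and the layer was cut out of frozen sagittal sections of 12 μm by laser capture. Starting from about 1 ng of total RNA, amplified and labelled with biotin, each sample was hybridized to an Affymetrix array. The titles of both samples name animal 1, so the spread between them, given here as an SD over n = 2, may be technical. They form 1 group, called sample 1 and sample 2, which allowed no test between conditions, and the values are descriptions.

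Guidance molecules steer growing axons and migrating neurons by attraction and repulsion. Semaphorins signal through plexins, with neuropilins as co-receptors of the secreted class 3 members. Ephrins are held on the cell surface and are bound by Eph receptor tyrosine kinases of neighbouring cells, netrins act through Dcc and the Unc5 receptors, and slits act through Robo receptors. In the developing cerebellum, Sema6a and its receptor Plxna2, Plxnb2 and Unc5c are known from mouse mutants to take part in granule cell migration or in holding these cells within their layer. In the adult brain many of the same genes are known from synapses, glia and blood vessels.

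The layer was checked against marker genes. All 14 measured granule neuron markers were above background in both samples, as were 7 of 10 Purkinje cell, 7 of 10 astrocyte and Bergmann glia, 6 of 9 oligodendrocyte, 2 of 5 oligodendrocyte precursor and 4 of 9 GABAergic interneuron markers. For unipolar brush cells the count was 2 of 3, for endothelial cells and pericytes 7 of 10, for microglia 4 of 10, for blood 1 of 4, and for choroid plexus and meninges 0 of 8. Over all named genes 45.4% were above background in both samples. The shares for GABAergic interneuron (44.4%), oligodendrocyte precursor (40%), microglial (40%), blood (25%) and choroid plexus and meninges (0%) markers did not exceed this. Those for the other types did, so the transcripts detected were not of granule neurons alone. Fewer cells of a type and less RNA per cell cannot be told apart. Which cell type gave a member's signal was not tested. Intensities are in array units, and since they depend on each probe set's own affinity, values of different genes are not read as relative abundance.

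The brightest probe set, the one with the highest mean log2 intensity over both samples, stood for each gene, which was called above background when it exceeded in each sample the 95th percentile of 92 genes typical of other organs. These thresholds were 11.6 for sample 1 and 17.4 for sample 2. By this measure 30 of the 71 genes (42.3%) were above background, against 45.4% of all named genes, a share near that of genes at large. A further 9 (12.7%) passed in sample 1 only, against 8.84% of all named genes, 3 (4.23%) in sample 2 only, against 3.01%, and 29 in neither. Of the 18194 named genes, 7782 passed in neither. The counts by role were 11 of 20 semaphorins, 6 of 11 plexins and neuropilins, 3 of 8 ephrins, 4 of 13 Eph receptors, 1 of 7 netrins and slits, 4 of 9 Dcc, Unc5 and Robo receptors, and Unc50 among the 3 genes matched by name. Ligands and receptors passed in like shares, 15 of 35 (42.9%) and 14 of 33 (42.4%).

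**Figure D1:**
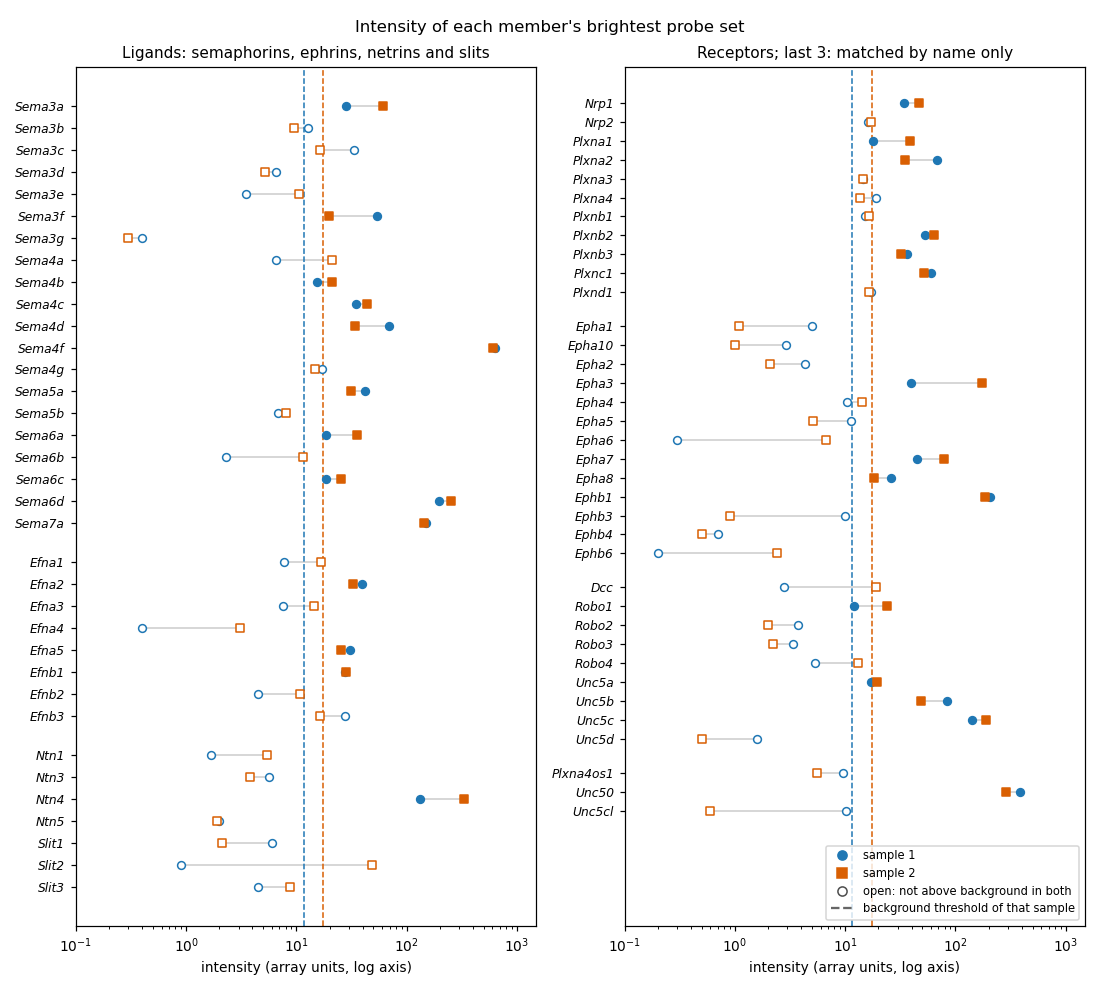
Intensity of the brightest probe set of each of the 71 genes on a log axis, with ligands on the left and receptors and the 3 genes matched by name on the right. Circles are sample 1, squares sample 2, filled symbols mark the 30 genes above background in both, and dashed lines are the thresholds of 11.6 and 17.4. Most filled symbols lie close to the thresholds, and Sema4f, Sema6d, Sema7a, Ntn4, Ephb1, Unc5c and Unc50 stand clear of them.

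The guidance genes lay nearer the threshold than genes at large. The median gene above background among the 30 reached 2.22 times the threshold in the sample where it was closer to it, against 4.98 times over all 8256 genes above background, and 7 of the 30 exceeded it by under 1.5 times. With the threshold at the 99th percentile of the same organ genes, 79.7 and 53.4, 7 of the 71 genes remained (9.86%), against 23.4% of all named genes. They were Sema4f, Sema6d, Sema7a, Ntn4, Ephb1, Unc5c and Unc50.

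These 7 genes were described first. Sema4f, a transmembrane semaphorin known to bind the postsynaptic scaffold PSD-95, had intensities of 631.8 and 602.6 in samples 1 and 2 (mean 617 ± 20.6, n = 2). Its value came from a probe set of the _x_at kind, which can match other transcripts, and its second probe set gave 32.0 and 43.2. Sema6d, a transmembrane ligand of Plxna1, had 195.4 and 254.5 on one probe set, and its 3 other probe sets lay between 0.6 and 12.0. Both samples thus placed the 2 genes well above threshold on 1 probe set each, and the second Sema4f probe set was above it too.

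Sema7a, the semaphorin held in the membrane by a lipid anchor, had 149.0 and 143.6 (mean 146 ± 3.82), and its other probe set 0.2 and 0.8. Ntn4, a laminin-related netrin of basement membranes, had 132.9 and 329.4 (mean 231 ± 139), and its other probe set 0.4 and 0.5. The 2 samples were close for Sema7a and 2.48-fold apart for Ntn4, whose sample 2 value was the higher.

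Ephb1, a receptor of B-class ephrins, had 205.2 and 184.6 (mean 195 ± 14.6) on its 1 probe set. Unc5c, the netrin receptor that is mutated in the rostral cerebellar malformation mouse, had 140.8 and 188.0 (mean 164 ± 33.4), and 23.5 and 12.9 on its second probe set. Both receptors were more than 10 times their threshold in each sample on the brightest probe set. Unc50, which is no guidance gene, had 388.5 and 288.6.

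The bases before the transcription start of 6 genes are shown to set genes detected in every setting beside genes at the bottom of the scale. They are the 3 genes above background under every alternative processing tried (Ephb1, Sema4f and Unc5c) and the 3 of lowest mean intensity with an entry in the RefSeq promoter table (Ephb4, Ephb6 and Sema3g), chosen after their values were seen. Ephb1 has 1 probe set, so averaging probe sets or omitting _x_at, _s_at and _a_at ones left its mean of 195 unchanged. Ephb4 had intensities of 0.7 and 0.5, Ephb6 0.2 and 2.4, and Sema3g 0.4 and 0.3. Each run is the 250 bases upstream of the annotated start, 5′ to 3′ on the gene's strand, in build GRCm38.p6, with every CG dinucleotide in capitals. The positions are chr9:102354694-102354943 (minus strand) for Ephb1, chr6:82939770-82940019 (minus) for Sema4f, chr3:141465314-141465563 (plus) for Unc5c, chr5:137349859-137350108 (plus) for Ephb4, chr6:41605261-41605510 (plus) for Ephb6 and chr14:31217623-31217872 (plus) for Sema3g.
Ephb1: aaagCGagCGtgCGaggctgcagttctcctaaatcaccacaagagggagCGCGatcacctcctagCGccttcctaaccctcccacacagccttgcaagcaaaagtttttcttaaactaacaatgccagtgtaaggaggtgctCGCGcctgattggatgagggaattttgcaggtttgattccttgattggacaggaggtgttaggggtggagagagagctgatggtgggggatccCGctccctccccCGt
Sema4f: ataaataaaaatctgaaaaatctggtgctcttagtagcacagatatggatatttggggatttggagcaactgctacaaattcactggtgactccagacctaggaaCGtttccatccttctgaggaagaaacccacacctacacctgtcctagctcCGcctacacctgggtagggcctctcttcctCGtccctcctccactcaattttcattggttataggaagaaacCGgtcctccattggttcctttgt
Unc5c: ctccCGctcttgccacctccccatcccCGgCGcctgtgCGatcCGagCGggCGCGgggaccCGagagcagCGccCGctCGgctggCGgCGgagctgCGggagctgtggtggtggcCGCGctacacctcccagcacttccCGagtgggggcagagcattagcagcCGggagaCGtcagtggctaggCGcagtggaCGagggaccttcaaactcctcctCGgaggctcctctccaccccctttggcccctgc
Ephb4: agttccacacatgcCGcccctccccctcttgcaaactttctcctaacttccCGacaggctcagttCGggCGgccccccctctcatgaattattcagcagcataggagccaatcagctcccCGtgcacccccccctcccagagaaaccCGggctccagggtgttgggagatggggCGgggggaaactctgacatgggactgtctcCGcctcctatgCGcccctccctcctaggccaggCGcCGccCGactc
Ephb6: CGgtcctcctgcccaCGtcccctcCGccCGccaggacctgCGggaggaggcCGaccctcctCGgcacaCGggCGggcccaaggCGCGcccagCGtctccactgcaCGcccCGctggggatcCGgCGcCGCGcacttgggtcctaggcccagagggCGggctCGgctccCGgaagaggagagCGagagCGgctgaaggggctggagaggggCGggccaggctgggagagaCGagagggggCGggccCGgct
Sema3g: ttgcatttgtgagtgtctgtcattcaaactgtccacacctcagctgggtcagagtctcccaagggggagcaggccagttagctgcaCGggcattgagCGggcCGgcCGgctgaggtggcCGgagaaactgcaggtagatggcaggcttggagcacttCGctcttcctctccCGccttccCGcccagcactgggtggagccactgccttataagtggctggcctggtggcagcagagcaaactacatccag

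The 3 detected genes held 10 (Ephb1), 4 (Sema4f) and 23 (Unc5c) CG dinucleotides in this window, and the 3 at the bottom of the scale 12 (Ephb4), 27 (Ephb6) and 8 (Sema3g), so the ranges overlapped. CG reads the same on both strands, and 92.1% of the 32851 RefSeq windows of this length hold at least 1, with a median of 6. Of the 71 genes, 60 had an entry, and for genes with several entries the first was used. The median number of CG dinucleotides was 17 over the 27 genes above background with an entry and 15 over the 33 others, and 22 of the 27 (81.5%) and 22 of the 33 (66.7%) held 10 or more. Over all named genes above background, 81.9% of which had an entry, the median was also 17 and 79.7% held 10 or more. The share of the 27 was thus near that of detected genes at large. For named genes not above background no share is given, because only 77.4% had an entry.

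Among the semaphorins, 4 of 6 class 4, 3 of 4 class 6, 1 of 2 class 5, 1 of 1 class 7 and 2 of 7 secreted class 3 genes passed. The share over all named genes was 45.4%, and these counts are too small to rank the classes. When probe sets were averaged, 2 of the 20 semaphorins passed. In class 3, Sema3a, a repellent that acts through Nrp1, had 28.4 and 61.0, and its 2 other probe sets did not exceed 10.1. Sema3f, a ligand of Nrp2, had 54.2 and 19.7 on an _x_at probe set, with 2 other probe sets of at most 1.5. Both were above threshold in both samples, with opposite order between them. Sema3c (33.2 and 16.3) and Sema3b (12.7 and 9.6) passed in sample 1 only, and Sema3d, Sema3e and Sema3g, from 0.3 to 10.5, in neither.

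The class 4 semaphorins are transmembrane proteins, several of them ligands of B plexins. Sema4d, a Plxnb1 ligand, was measured by 3 probe sets, of which 2 passed with 69.1 and 34.1 and with 37.3 and 51.0, and the third gave 0.9 and 0.6. The 2 passing probe sets put different samples first. Sema4c, a Plxnb2 ligand, had 34.9 and 43.4. Sema4b had 15.3 and 21.0 on 1 of 2 probe sets, close to the thresholds. Sema4g (17.1 and 14.8) passed in sample 1 only and Sema4a (6.5 and 21.0) in sample 2 only, so that no class 4 gene was below threshold in both.

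Sema5a, which carries thrombospondin repeats and binds Plxnb3, had 42.1 and 31.4 on 1 of 4 probe sets, and its relative Sema5b had 6.8 and 8.1. Sema6a, the ligand of Plxna2 and Plxna4, passed with 2 of 3 probe sets, at 18.4 and 35.6 and at 12.8 and 24.5. Sample 2 was the higher on both. Sema6c had 18.7 and 25.5 on 1 of 3 probe sets, of the _a_at kind. Sema6b, with 2.3 and 11.4, was the class 6 gene below threshold in both samples.

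No plexin or neuropilin was below threshold in both samples: 6 of the 11 passed in both, and the 5 others in sample 1 only. Nrp1, the co-receptor of Sema3a and a receptor for VEGF, had 33.9 and 46.6 on 1 of 4 probe sets. Plxna2 had 67.5 and 34.7 on its brightest probe set and 22.6 and 49.4 on another, again with different samples first. Plxna1 had 17.9 and 39.0 on 1 of 2 probe sets, and Plxnb2 had 53.0 and 64.2. Plxnb3 had 36.6 and 32.3, and Plxnc1, the Sema7a receptor, 60.4 and 52.2 on 1 of 6 probe sets. The Plxnb3 value came from an _s_at probe set, which can match several transcripts, and its other probe set had at most 1.5.

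The 5 genes that passed in sample 1 only clustered at the threshold. Nrp2 (16 and 17.0), Plxna3 (14.6 and 14.5), Plxna4 (19.1 and 13.6), Plxnb1 (15.2 and 16.6) and the Sema3e receptor Plxnd1 (17.1 and 16.4) gave similar intensities in both samples. They passed the lower threshold of sample 1 and missed the higher one of sample 2, so the count of plexins and neuropilins rests on sample 2. It was 11 of 11 in sample 1 alone, and also 11 with the 90th percentile threshold. Of all named genes, 45.4% passed in both samples and a further 8.84% in sample 1 only.

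Of the ephrins, Efna2 had 39.8 and 32.9, Efna5 had 30.6 and 25.3, and Efnb1 had 27.8 and 28.5. The second probe sets of Efna2 (7.1 and 0.5) and Efna5 (0.6 and 7.0) passed in neither sample. On the brightest probe sets the samples were close for all 3, and Efnb1 passed with 2 of 3 probe sets. Its value came from an _a_at probe set and the second passing one had 15.2 and 16.4, so that without _x_at, _s_at and _a_at probe sets Efnb1 (mean 15.8) was not above the gene threshold of sample 2. Efnb3 (27.9 and 16.4), a ligand known from axon repulsion at the midline, passed in sample 1 only. Efnb2, a marker of arterial endothelium among its other roles, stayed at 4.5 and 10.8 on the brightest of 4 probe sets, and Efna1, Efna3 and Efna4, from 0.4 to 16.9, passed in neither sample. The second probe set of Efna3 gave 30.4 in sample 1 and 0.7 in sample 2. Its arithmetic mean is the higher of both, and with it Efna3 would pass in sample 1 only.

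Of the Eph receptors 9 of 13 were below threshold in both samples, and of the netrins and slits 5 of 7. Over all named genes this held for 7782 of 18194. Epha7 had 44.7 and 78.9 on one probe set and 45.0 and 44.4 on another, out of 4. Epha3 had 39.3 and 175.3 on its brightest probe set and 27.4 and 44.3 on a second, with sample 2 higher on both, while 2 further probe sets gave at most 1.9. Epha8, with 26.2 and 18.1, was barely above the threshold of sample 2. Epha4, a receptor for both ephrin classes that is prominent in many brain regions, was above background in both samples on none of its 5 probe sets, and the brightest of them had 10.3 and 14.2. The remaining Eph receptors, Epha1, Epha2, Epha5, Epha6, Epha10, Ephb3, Ephb4 and Ephb6, lay between 0.2 and 11.2.

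Besides Ntn4, no netrin or slit passed in both samples. Ntn1, the classical attractant and Dcc ligand, had 1.7 and 5.4 on its brighter probe set. Ntn3, Ntn5, Slit1 and Slit3 lay between 1.9 and 8.8. Slit2 was listed at 0.9 in sample 1 and 48.7 in sample 2 on its brightest probe set, and its 2 other probe sets had at most 3.3, so that it passed in sample 2 alone.

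Of their receptors, 3 of 4 Unc5 and 1 of 4 Robo genes passed, against 45.4% of all named genes. These counts are too small to set the families apart. Unc5c passed as above, Unc5b, also known from blood vessels, with 84.5 and 48.7, and Unc5a with 17.0 and 19.3, close to the threshold of sample 2. The second Unc5b probe set had 25.6 and 8.2 and passed in sample 1 only. At the 99th percentile threshold only Unc5c remained. Unc5d had 1.6 and 0.5. Among the Robo receptors, Robo1 had 12.0 and 24.1, just above the threshold of sample 1, whereas Robo2, Robo3 and the endothelial Robo4 lay between 2.0 and 13.2. Another Robo1 probe set had 15.5 and 10.4, in the opposite order. Dcc, the attractive netrin receptor, had 2.8 and 18.9 on the brightest of 3 probe sets and passed in sample 2 only. Another Dcc probe set had 10.9 and 1.7, in the opposite order.

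Probe sets of the same gene often disagreed. Of the 156 probe sets, 43 (27.6%) were above the probe set thresholds of 10.5 and 15.0 in both samples, against 37.8% of all probe sets with 1 symbol. These thresholds are lower than those used for genes. The brightest probe sets of Nrp2, Plxnb1, Plxnd1, Efnb3 and Sema3c passed them in both samples, though these genes were not called above background. Several probe sets were available for 46 genes. Of these, 27 (58.7%) were split, with probe sets on both sides of the thresholds, against 50.0% of all such genes, 1 (Sema4f) had all of them above, and 18 had none. The share of genes above background was larger for genes with more probe sets, of which the brightest is taken. It was 5 of 25 with 1 probe set, 10 of 22 with 2, and 15 of 24 with 3 or more, or 20%, 45.5% and 62.5%. Over all named genes these shares were 28.3%, 53.3% and 73.0%. When probe sets were averaged instead of taking the brightest, 11 of the 71 genes were above background (15.5%), against 32.1% of all named genes.

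**Figure D2:**
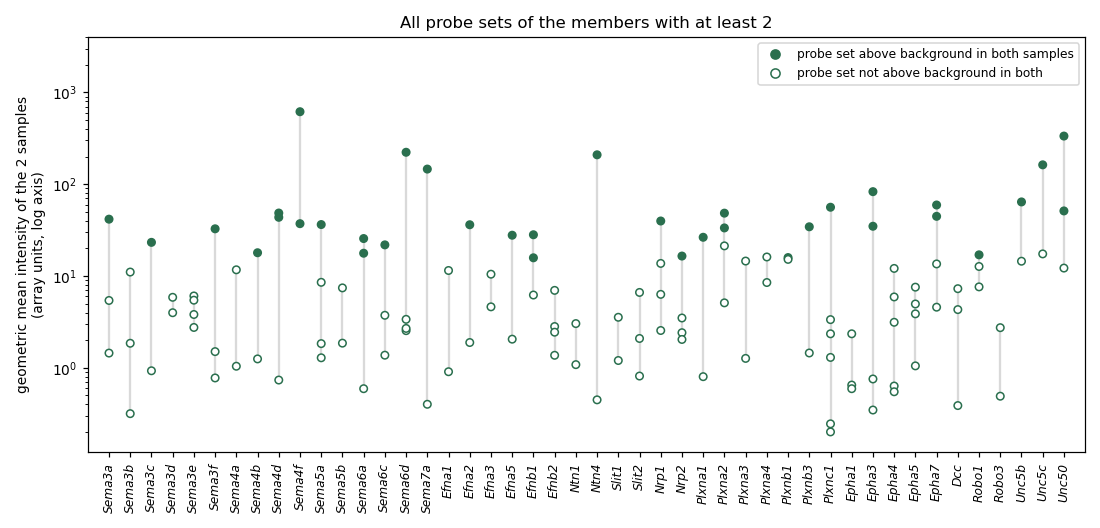
Geometric mean intensity over the 2 samples (log axis) of every probe set of the 46 genes with at least 2, one column per gene. Filled points are probe sets above the probe set thresholds in both samples, and 27 columns hold both filled and open points, with those of Ntn4 and Sema7a farthest apart among genes with 2 probe sets.

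The ligands and receptors were then read as pairs from a list of 87 established pairings, 83 of which were measured. Both partners were above background for 14 pairs, the ligand alone for 16, the receptor alone for 21 and neither for 32. Of all named genes taken singly, 45.4% were above background, and the share among pairs of unrelated genes was not computed. Many pairs share a gene, so they are not independent of each other. The 7 semaphorin pairs of 20 were Sema3a with Nrp1, Sema4c with Plxnb2, Sema5a with Plxnb3, Sema6a with Plxna2, Sema6c and Sema6d with Plxna1, and Sema7a with Plxnc1. The 7 ephrin pairs of 52 were Efna2 and Efna5 with Epha3, Epha7 and Epha8, and Efnb1 with Ephb1. Efna2 and Efna5 each passed on 1 of 2 probe sets. Netrin was listed through Ntn1 alone, and Ntn4 was in no listed pair. No listed Ntn1 or slit pair passed: for 3 of 5 pairs of Ntn1 and for 3 of 6 slit pairs only the receptor was above background. In sample 1 alone 22 pairs passed, and 1 did when probe sets were averaged. A pair says only that both transcripts were detected in the layer, not in which cells.

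**Figure D3:**
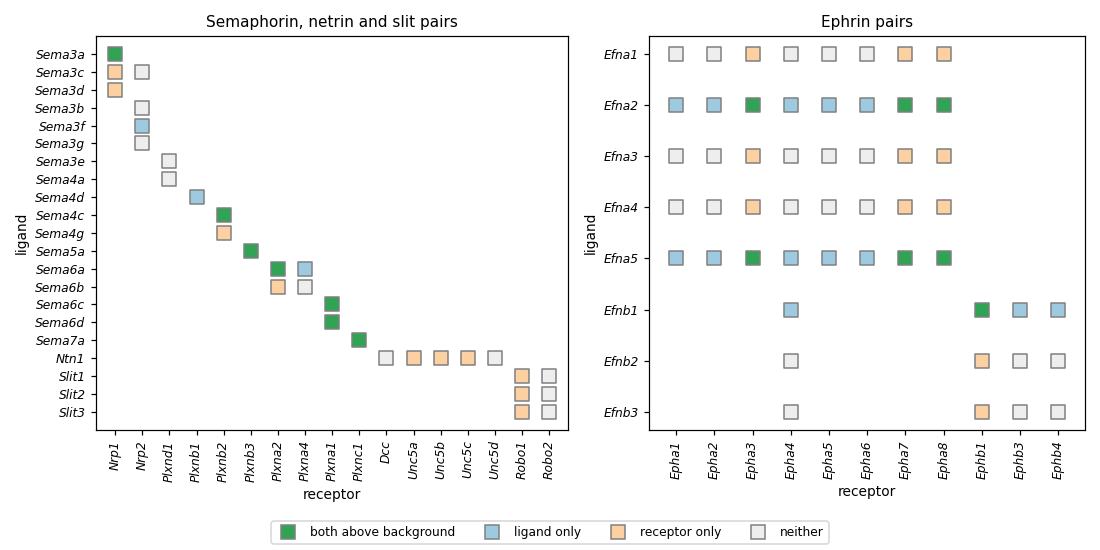
Each square is 1 of the 83 measured ligand (rows) and receptor (columns) pairings, with semaphorin, netrin and slit pairs on the left and ephrin pairs on the right. Green marks the 14 pairs with both genes above background in both samples, blue the ligand alone, orange the receptor alone and grey neither.

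Other genes of the guidance pathways were taken from a list of co-receptors and signalling genes. Of 74 measured, 52 (70.3%) were above background and 28 at the 99th percentile threshold. Over all named genes these shares were 45.4% and 23.4%. Values are those of the brightest probe set, and 43 of the 65 listed genes with several probe sets were split, against 50.0% of all such genes. Co-receptors and other ligands passed in 15 of 21 cases. Among them were the L1 family adhesion genes Chl1 (1877.0 and 1704.7) and L1cam (209.7 and 178.2) and the netrin and RGM receptor Neo1 (531.0 and 506.9). The Neo1 value came from an _s_at probe set, and 2 of its 5 probe sets passed. Of the regulators of small GTPases 12 of 20 passed, including the Rac GTPase-activating gene Chn2 (2755.3 and 2933.0) and the exchange factors Tiam1 (381.9 and 404.9) and Trio (366.2 and 321.1).

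Among adaptors and cytoskeletal effectors 16 of 21 passed. The actin-severing gene Cfl1 had 3809.7 and 3970.1 on an _x_at probe set, the collapsin response mediator gene Dpysl2 3389.1 and 3548.5, and the cytoskeletal kinase gene Rock1 751.5 and 765.7. Of the kinases and phosphatases 7 of 9 passed, with Ptpn11 at 455.5 and 763.8, Gsk3b at 203.0 and 267.7 and the Src family kinase gene Fyn at 178.9 and 253.2. Of the proteases that shed guidance receptors and ligands 2 of 3 passed, Adam10 (859.0 and 1218.4) and Bace1 (279.8 and 231.0). The 74 genes of this list thus passed in a larger share than the 71, a difference that was not tested. Its 21 co-receptors and other ligands also passed in a larger share (71.4%), so the contrast does not set signalling genes against ligands and receptors. The listed genes also had more probe sets, 223 for 74 genes against 156 for 71. Of the 223, 92 (41.3%) were above background, against 37.8% of all probe sets with 1 symbol. Over all named genes the share above background rose with the number of probe sets, to 73.0% for genes with 3 or more. The list was drawn up from the known pathway and is used for many other signals in the cell.

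**Figure D4:**
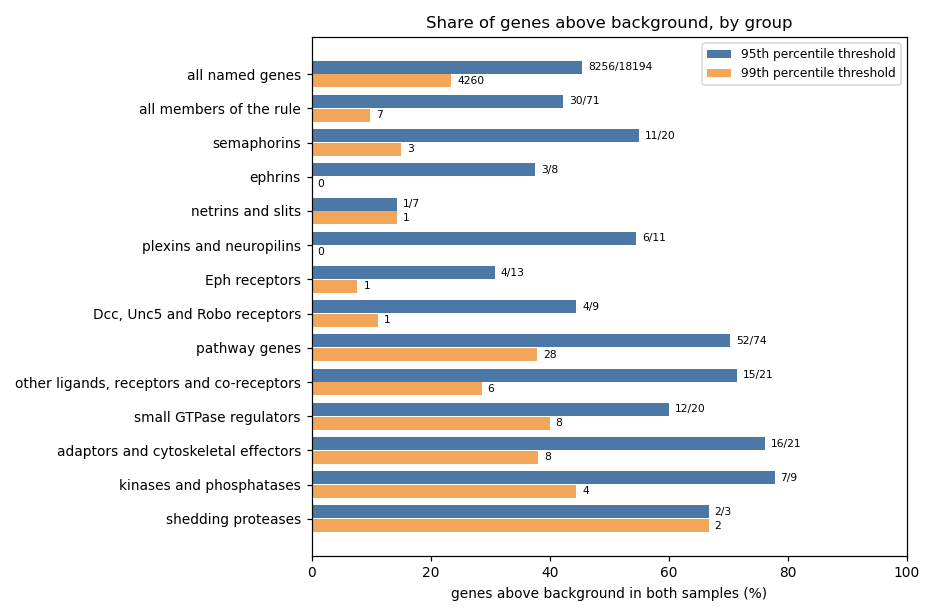
Percentage of genes above background in both samples for all named genes, the 71 genes and their 6 roles, and the 74 other pathway genes and their categories. Blue bars use the 95th percentile threshold and orange bars the 99th, and labels give the numbers of genes. The bar of the 71 genes (30 of 71) lies beside that of all named genes, and that of the pathway genes (52 of 74) reaches farther.

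Between the samples, the 30 genes above background in both differed by a median of −0.11 on the log2 scale (sample 1 minus sample 2), against −0.08 over all such genes. Of the 30, 14 were higher in sample 1 and 16 in sample 2. In 1 or both samples 42 genes were above background. Sample 1 exceeded sample 2 by 2-fold or more for 3 of them (7.14%), against 12.4% of all such genes, and the reverse held for 8 (19.0%), against 11.1%. With 1 sample on each side these differences have no replicate check.

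The 3 higher in sample 1 were Sema3c, Sema3f and Sema4d, by 2.04-fold, 2.75-fold and 2.03-fold, and the second passing probe set of Sema4d went the other way. Sema3c was not above background in sample 2, with 16.3 against the threshold of 17.4. The 8 higher in sample 2 were Sema3a (2.15-fold), Plxna1 (2.18-fold), Robo1 (2.01-fold), Ntn4 (2.48-fold), Epha3 (4.46-fold) and, not above background in sample 1, Sema4a, Dcc and Slit2. For Epha3 the direction was the same on both passing probe sets, and for the other 7 only 1 probe set passed or none did. Probe sets of Dcc (10.9 and 1.7) and Robo1 (15.5 and 10.4) that passed in sample 1 only went the other way. At a mean intensity of 100 or more, 6 of the 8 genes were within 2-fold, all but Ntn4 and Epha3, against 94.1% of all named genes of that range. Under 20, 21 of 41 were, against 44.7%.

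Markers of other cells also differed between the samples, and their part in these differences was not tested. The summed intensity of the 10 Purkinje cell markers was 1195.5 in sample 1 and 1585.0 in sample 2, of which 7 were above background, and that of the 10 microglial markers 631.4 and 909.0, of which 4 were. Single markers went both ways: of the Purkinje cell markers compared 3 were higher in sample 1 and 5 in sample 2, and of the microglial markers 2 and 4. The sums of astrocyte and Bergmann glia markers (4260.3 and 3941.3) and of oligodendrocyte markers (8073.9 and 7609.9) were higher in sample 1. The summed granule neuron markers gave 35539 and 36771. The sum over the 71 genes was 3037.5 and 3367.7.

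**Figure D5:**
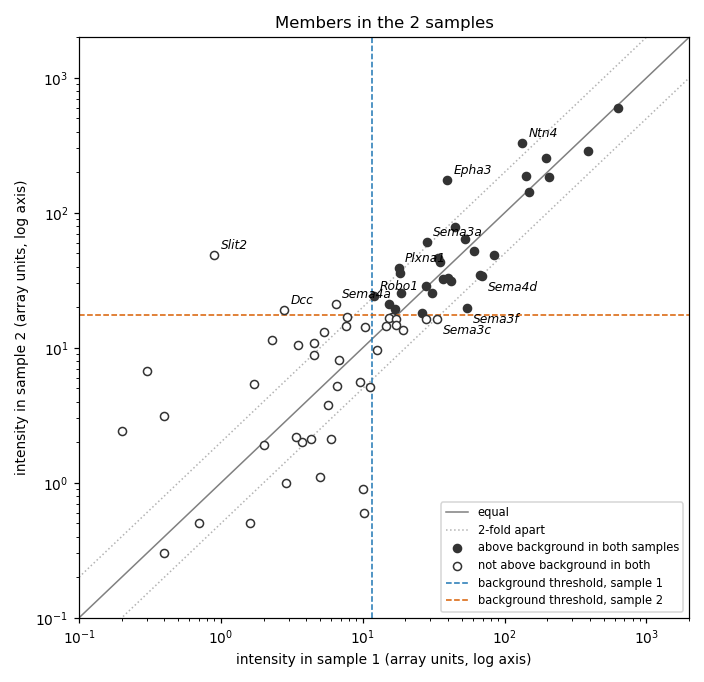
Intensity of the 71 genes in sample 1 and sample 2, on log axes, with filled points for the 30 above background in both. The solid line marks equal values, dotted lines a 2-fold difference, and dashed lines the thresholds; the 11 genes at least 2-fold apart and above background in at least 1 sample are named.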

How the data were processed

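The deposited table holds linear intensities from the authors, 1 for each array and probe set, made with GCOS per the submitters' processing notes. The GCOS version, settings and scaling target were not given in these sources. Values were used as deposited. For log2 differences, zeros (2 in sample 1, 1 in sample 2, none in a probe set described here) were set to 0.1. Depth does not apply to arrays, and their number limits the precision.

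Probe sets were named from the platform annotation: 34958 had 1 symbol, 932 had several and 9211 had none and were left unnamed. A gene was its brightest probe set, by mean log2 intensity over both samples. The background list held 98 genes of other organs, 92 of them measured (122 probe sets), of which 3 exceeded the thresholds in both samples. Every gene of the rule is described, and of each pathway category the 3 brightest above background. Members and lists were chosen with earlier results of these data known. Promoter windows are RefSeq's (GRCm38.p6). Python 3.11.15, numpy 2.4.6, pandas 2.3.3 and matplotlib 3.10.9 were used. The Purkinje cells that the design text names were not analysed here.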

Additional observations from a re-analysis of the deposited data

How the results depend on the processing

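The 13 counts were recomputed in 126 cases, of which 92 were within 1.5 times the reported count and 34 were not. Quantile normalization, median scaling and the omission of _x_at, _s_at and _a_at probe sets kept all 13 counts within it (with the last, 25 of the genes were above background). The 99th percentile threshold gave 7 genes and 8 probe sets above background, 7 genes with disagreeing probe sets, 3 semaphorins, 0 plexins and neuropilins, 0 ephrins, 1 Eph receptor, 1 Dcc, Unc5 or Robo receptor, 0 pairs and 28 pathway genes. Its 2-fold counts were 0 for sample 1 and 3 for sample 2. The mean of all probe sets gave 11 genes, 2 semaphorins, 2 plexins and neuropilins, 0 ephrins, 0 netrins and slits, 1 pair and 29 pathway genes, with 0 genes 2-fold higher in sample 2. The 90th percentile threshold and the threshold from 70 olfactory and vomeronasal receptor genes each gave 11 plexins and neuropilins, 25 pairs and 6 genes 2-fold higher in sample 1, and the latter 13 higher in sample 2. Adding 16 before log2 gave 2-fold counts of 0 and 3, and dropping the filter on low values gave 11 and 17. Leaving out 1 sample gave 6 to 11 plexins and neuropilins, 1 to 2 netrins and slits, and 15 to 22 pairs. Choosing the brightest probe set by arithmetic mean, an alternative added after seeing the data, gave 30 genes and 51 pathway genes above background. With both samples kept, 30 of 120 recomputed mean intensities of the 30 genes moved by more than 1 SD. No paired analysis was possible because there is 1 group. Members near the thresholds limit every count.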
